A study of Thermothelomyces thermophilus with 6 samples.

Results

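Mycelium of the thermophilic filamentous fungus Myceliophthora thermophila (ATCC 42464, now also called Thermothelomyces thermophilus) on soluble starch was compared with mycelium that had no carbon source. The comparison was defined by the medium named in the sample titles and used 4 of the 6 libraries of the series, 2 from starch and 2 from no carbon. Per the labels, mycelium of both groups came from an 18 h preculture at 45 °C with 2% glucose in Vogel's salts, a minimal mineral medium, and was washed before the move. Starch mycelium then spent 4 h with 2% starch, and no carbon mycelium spent 4 h in the same test without any sugar. No library was taken before the move, so a higher value on starch may also be a lower value after 4 h of starvation. The 2 glucose libraries entered the statistical model to estimate the spread and are not described. All 9110 genes of the read count table were considered, of which 8718 had enough reads to be tested and 392 did not.

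Starch is a glucose polymer that fungi digest outside the cell. Amylases cut the chains, glucoamylase and alpha-glucosidase release glucose, and transporters take the sugar up. In filamentous fungi, genes for such enzymes are switched on by starch-derived sugars through the regulator AmyR, and genes for the use of other carbon sources are held down by carbon catabolite repression. Starved mycelium commonly recycles its own proteins and carbohydrates, and genes of secondary metabolism often sit side by side in the genome.

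The starch libraries held 22539023 and 22975353 counted reads, and the no carbon libraries 21820858 and 17726204. Levels are given as scaled RPKM, the RPKM unit (reads per kilobase of gene, scaled to library size) with the library size multiplied by its TMM factor (an edgeR scaling against differences in composition). They describe a gene's share of the messenger RNA, since the amount of RNA per mycelium was not measured. The mean chi-square per gene between replicates was 2.59 on starch and 8.75 without carbon, where counting noise alone gives a mean of about 1 and a lower median. The medians, 0.84 on starch and 0.94 without carbon, lay close together, so the higher mean without carbon came from a minority of genes. The labels do not say that replicates were separate cultures, so p-values measure only how far these libraries spread, and that spread may be technical. No date or batch is given.

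Of the genes tested, 3950 (45.3%) rose and 3896 (44.7%) fell on starch relative to no carbon, with an adjusted p under 0.05 (edgeR quasi-likelihood test, n = 2 libraries each). A test for a difference of more than 2-fold called 1773 genes (20.3%) higher and 1658 (19%) lower. The values of starch and no carbon libraries did not overlap for any of these 3431 genes, and they did not overlap for 94.7% of all tested genes either. Fitted differences of at least 10-fold were found for 145 genes higher and 181 lower, and differences of at least 30-fold for 24 higher and 37 lower. At the other end, the 95% interval of the log2 fold change lay within 0.5 on either side of 0 for 1909 genes, and within 0.2 for 445. Of the 1909, 1299 were still called different, so many calls concern small differences.

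**Figure D1:**
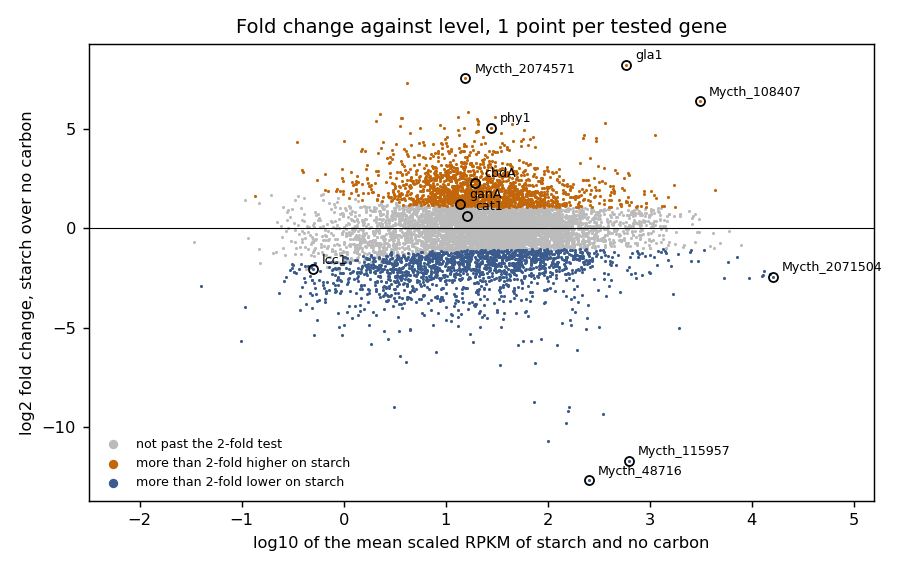
Log2 fold change of starch over no carbon (vertical) against the log10 of the mean scaled RPKM of the 2 media (horizontal), with 1 point per tested gene. Orange points are 1773 genes that passed the 2-fold test as higher on starch and blue points the 1658 genes more than 2-fold lower. The circled gla1 has the largest rise, and the circled Mycth_48716 and Mycth_115957 have the largest falls.

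Only 6 genes of the reference gene table carry a name, and their roles are given as background. The starch-degrading enzyme among them, gla1 (Mycth_72393), encodes glucoamylase, which releases glucose from chain ends. It had 1150 and 1191 scaled RPKM in the starch libraries, against 4.2 and 3.57 scaled RPKM in the no carbon libraries. Its starch values stood far above both no carbon values, and it had the largest rise of all tested genes (log2 fold change 8.22, SE 0.044, adjusted p = 1.8e-63). By scaled RPKM it ranked 86 among the tested genes on starch.

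Another 2 of the named genes, ganA and cbdA, were also higher on starch, with smaller folds. The gene ganA (Mycth_43163) encodes an endo-galactanase, which cuts the galactan side chains of pectin. It had 19.97 and 18.7 scaled RPKM on starch, against 8.28 and 8.18 without carbon (log2 fold change 1.23, SE 0.10, adjusted p = 2.7e-15). The gene cbdA (Mycth_111388) encodes cellobiose dehydrogenase, which oxidises a breakdown product of cellulose. It had 32.0 and 32.5 scaled RPKM on starch, against 6.87 and 6.19 without carbon (log2 fold change 2.30, SE 0.06, adjusted p = 8.7e-34). Both genes passed the 2-fold test, and their libraries did not overlap between media.

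The remaining named genes encode a phosphate-releasing enzyme and redox enzymes. The phytase gene phy1 (Mycth_104551), whose product frees phosphate from phytate, had 53.6 and 54.2 scaled RPKM on starch, against 1.20 and 2.14 without carbon. This was the rise ranked 20 among all tested genes (log2 fold change 5.05, SE 0.10, adjusted p = 6.7e-40). The gene cat1 (Mycth_80916) encodes catalase, which breaks down hydrogen peroxide. It had 18.4 and 20.6 scaled RPKM on starch, against 12.6 in both no carbon libraries. Its log2 fold change of 0.63 (SE 0.06, adjusted p = 2.7e-13) did not pass the 2-fold test. Under the alternative analyses given further on, this log2 fold change was 0.25 to 0.72. The laccase gene lcc1 (Mycth_51627), for a copper enzyme that oxidises phenols, was scarce in both media. It had 17 reads over both starch libraries, against 64 over both no carbon libraries, a fall of 2.05 on the log2 scale (SE 0.42, adjusted p = 1.4e-05). Scaled for library size, the read ratio of no carbon over starch was 4.21, with an exact 95% counting interval of 2.43 to 7.66. Counting intervals cover counting error alone.

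**Figure D2:**
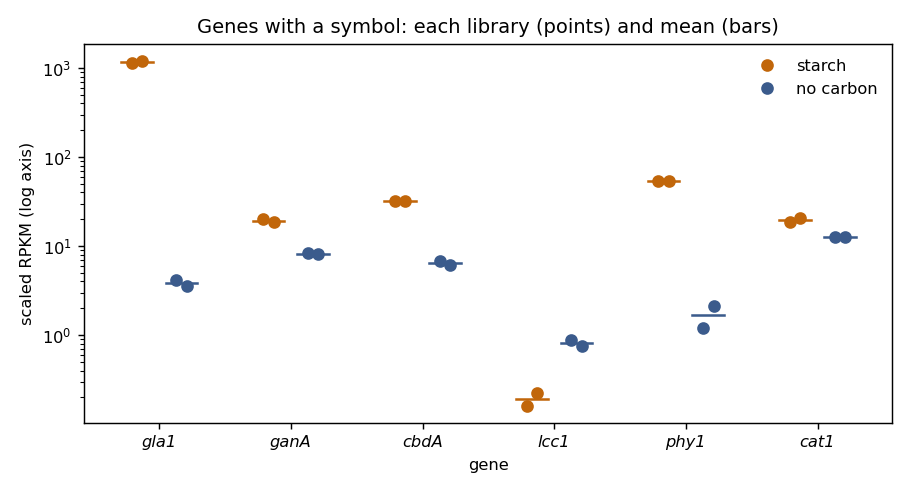
Scaled RPKM (log axis) of the 6 genes with a symbol in each starch library (orange) and each no carbon library (blue), with the mean as a bar. For all 6 genes the libraries of the 2 media are separate, and lcc1 is the one gene lower on starch.

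Many of the strongest falls lay side by side in the genome. Gene order was read from the reference table, and runs of consecutive genes were formed in which every gene passed the 2-fold test in the same direction. The longest run held 13 genes, all lower on starch, and its members were chosen by these values. It began with Mycth_2303695, followed in order by Mycth_68164, Mycth_50128, Mycth_115957, Mycth_2303701, Mycth_2303702, Mycth_2138881, Mycth_2303707, Mycth_81364, Mycth_2303709, Mycth_50920 and Mycth_48716, and ended with Mycth_107763. The sources used here do not annotate these genes. Of the 12 tested genes with a fitted fall of 100-fold or more on starch, 9 were in this run. At lower limits its share was smaller, with 9 of 37 genes at 30-fold or more and 10 of 181 at 10-fold or more. All 13 genes together had 3472 and 3613 reads in the starch libraries (0.0154% and 0.0157% of the reads), against 130454 and 102648 in the no carbon libraries (0.598% and 0.579%).

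Within the run, 9 genes were almost silent on starch, with means of 0.0742 to 1.36 scaled RPKM, against 145 to 1249 scaled RPKM without carbon. Mycth_48716 had 3 and 1 reads in the starch libraries, against 13847 and 10904 reads in the no carbon libraries. These counts gave the largest fall of all tested genes, a log2 fold change of -12.66 (SE 0.09, adjusted p = 5.7e-59), with -13.57 when starch replicate 1 was left out and -12.09 when replicate 2 was. The scaled read ratio of no carbon over starch was 6912, with an exact 95% counting interval of 2699 to 25370. Mycth_115957 was the most abundant member without carbon. It had 0.318 and 0.429 scaled RPKM on starch, against 1257 and 1240 without carbon (log2 fold change -11.68, SE 0.06, adjusted p = 3.5e-64). These 2 genes, Mycth_81364, Mycth_2303707, Mycth_50128, Mycth_2138881 and Mycth_2303702 were the 7 largest falls of all tested genes.

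Mycth_81364 had 5 and 4 reads on starch, against 7578 and 6060 without carbon (log2 fold change -10.68, SE 0.10, adjusted p = 2.5e-54). Mycth_2303707 had 7 and 13 reads on starch, against 9249 and 6897 without carbon (log2 fold change -9.79). Mycth_50128 had 1.25 and 0.867 scaled RPKM on starch, against 706 and 691 without carbon (log2 fold change -9.36). For each of these genes both no carbon libraries lay close together and far above both starch libraries, whose values rested on few reads. Mycth_2138881, Mycth_2303702 and Mycth_2303709 showed log2 fold changes of -9.18, -9.01 and -8.72, and Mycth_2303701 one of -6.77.

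The other 4 members kept a measurable level on starch. Mycth_107763 had a mean of 19.9 ± 2.08 scaled RPKM on starch, against 327 ± 2.73 without carbon (SD, n = 2 each, log2 fold change -4.04). Mycth_50920 had 24.3 scaled RPKM on starch and 99.2 without carbon, and Mycth_2303695, the first gene of the run, had 23.0 on starch and 97.5 without carbon. Mycth_68164 is by far the longest gene of the run, at 11844 counted bases. It had 2.14 and 2.25 scaled RPKM on starch, against 11.7 and 11.6 without carbon (log2 fold change -2.41, SE 0.05, adjusted p = 1.4e-38). Its log2 fold change was -3.03 when the gene length trend described further on was removed. Levels in the run thus differed between members in both media, and the fitted falls were 4.09-fold to 6462-fold.

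The run ended on either side at a gene that did not pass the 2-fold test. On the far side of Mycth_107763, Mycth_2062976 had a log2 fold change of -0.86 (SE 0.29, adjusted p = 0.0053) and did not pass the 2-fold test. On the near side, Mycth_2303693 had a log2 fold change of -0.77 (SE 0.09, adjusted p = 1.5e-10) and did not pass it either. Beyond that single gene lay a second run of 5 genes lower on starch, from Mycth_2062645 to Mycth_2303692, with log2 fold changes of -1.39 to -4.61. The near edge was thus a gap of 1 gene between falls of similar size. Mycth_2303692 had a log2 fold change of -2.22, against -2.08 for Mycth_2303695 inside the run of 13. All 13 members passed the 2-fold test under every alternative analysis and with any library left out.

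**Figure D3:**
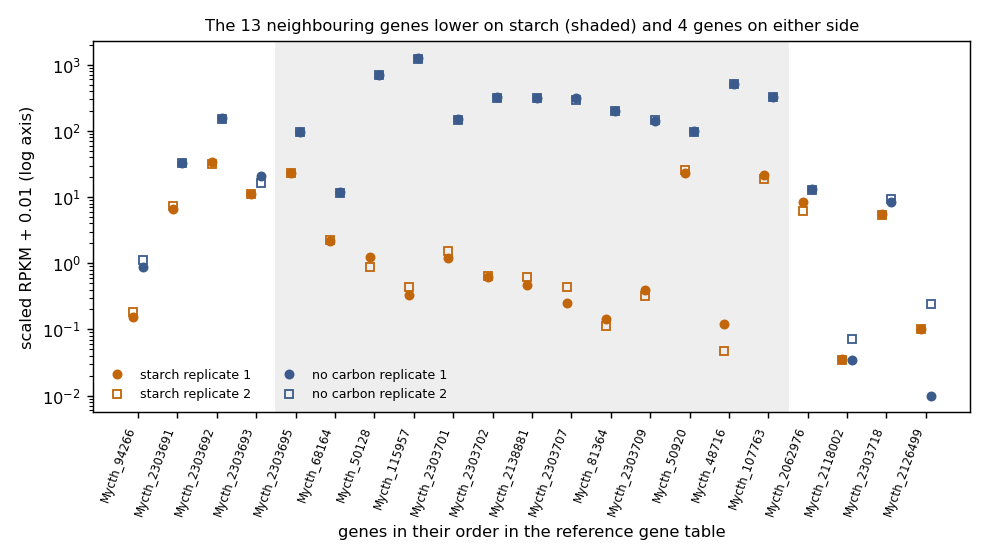
Scaled RPKM plus 0.01 (log axis) of the 13 consecutive genes lower on starch (shaded) and of 4 genes on either side, in gene order, for each starch library (orange) and each no carbon library (blue). Inside the shaded part 9 genes sit at 0.0742 to 1.36 scaled RPKM on starch against 145 to 1249 without carbon. The gene directly beside the shaded part on either side did not pass the 2-fold test. Further left, Mycth_2303692, Mycth_2303691 and Mycth_94266 had log2 fold changes of -2.22, -2.25 and -2.61.

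Other extreme genes lay elsewhere. Outside the run, the fitted fall on starch was 100-fold or more for Mycth_103797, Mycth_2112989 and Mycth_2299844, and for the last 2 of these the reads bound the fall only at a smaller fold. These 3 genes were named because of their small number and after their values were seen. Mycth_103797 had 0.507 and 0.663 scaled RPKM on starch, against 68.5 and 67.6 without carbon (log2 fold change -6.85, SE 0.11, adjusted p = 5.7e-44), and it stands at the end of a run of 5 genes lower on starch. Mycth_2112989 had no read on starch and 124 reads over both no carbon libraries. Set against 3 reads over both starch libraries, it was 46.2-fold lower on starch, a value that leaves out counting error. The exact counting interval bounded its fall only at 37.0-fold or more. Mycth_2299844 had 2 reads on starch and 215 without carbon, and the counting interval of its scaled read ratio ran from 32.8 to 998. Without starch replicate 1 its log2 fold change was -5.81, and without starch replicate 2 it was -9.73.

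The fitted rise on starch was 100-fold or more for gla1, Mycth_2074571 and Mycth_39035, and for the last of these the reads bound the rise only at a smaller fold. Mycth_2074571 had 29.5 and 32.6 scaled RPKM on starch, against 0.084 and 0.263 without carbon (log2 fold change 7.55, SE 0.15, adjusted p = 8.9e-40). Both no carbon values rested on a total of 14 reads, and the log2 fold change was 6.87 when no carbon replicate 1 was left out and 8.48 when replicate 2 was. Mycth_39035, also named after its values were seen, had 399 reads on starch and 2 without carbon, with a scaled read ratio of 179 and a counting interval of 49.1 to 1480. Its log2 fold change was 10.47 when no carbon replicate 1 was left out and 6.53 when replicate 2 was. The rise of gla1, in contrast, rests on 351 reads without carbon.

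Runs of genes higher on starch were shorter. One run of 5 contained phy1 and was named after its values were seen. In gene order it held Mycth_59005, Mycth_117620, phy1, Mycth_2310013 and Mycth_2310016. Mycth_59005 was the most abundant, with 564 and 569 scaled RPKM on starch, against 24.1 and 23.8 without carbon (23.7-fold, log2 fold change 4.56, SE 0.04, adjusted p = 2.1e-56). Mycth_2310013 had 24.6 and 26.6 scaled RPKM on starch, against 2.33 and 2.81 without carbon (log2 fold change 3.33). Mycth_117620 and Mycth_2310016 rose 3.55-fold and 2.66-fold. All 5 genes passed the 2-fold test as higher, at levels that differed widely between genes. The next gene on one side, Mycth_97150, was lower on starch (log2 fold change -3.91, SE 0.41, adjusted p = 2.9e-12).

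The longest run of genes higher on starch held 6 genes, Mycth_2296151, Mycth_2296153, Mycth_2296155, Mycth_2296156, Mycth_2296160 and Mycth_2296162. Their rises were moderate, with log2 fold changes of 1.30 to 2.08. Mycth_2296162 rose most, with 42.3 and 44.1 scaled RPKM on starch, against 10.5 and 9.85 without carbon (adjusted p = 7e-28). Mycth_2296153 had the highest level, 60.1 scaled RPKM in both starch libraries, against 24.5 and 24.3 without carbon. With the gene length trend removed, all 6 were still called higher, but 2 of the 6 passed the 2-fold test, and the log2 fold change of Mycth_2296160 was 0.99 in place of 1.63. DESeq2 and the fit without no carbon replicate 2 each kept 5 of the 6 in the 2-fold test.

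**Figure D4:**
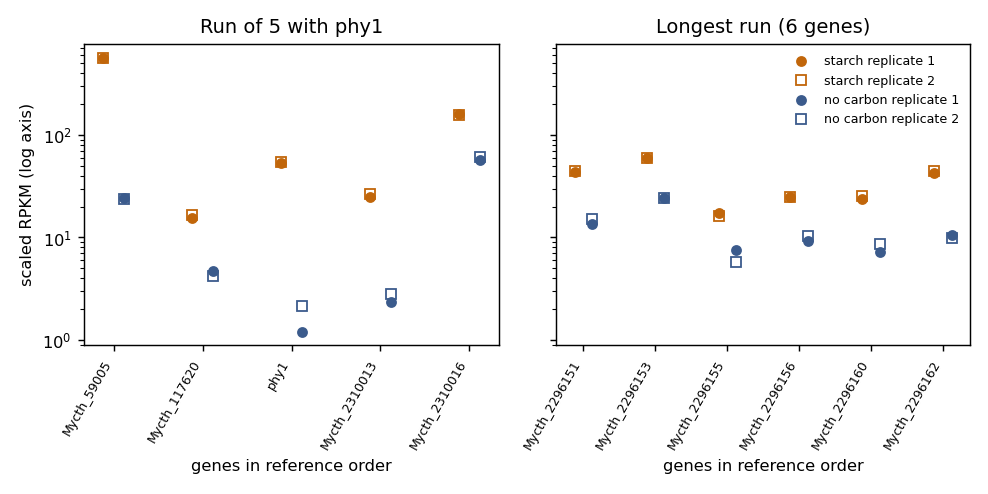
Scaled RPKM (log axis) of 2 runs of neighbouring genes higher on starch, in gene order, for each starch library (orange) and each no carbon library (blue). In the run with phy1 the folds are 2.66 to 33.2, and in the run of 6 genes the log2 fold changes are 1.30 to 2.08.

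Over the genome, 8385 pairs of adjacent genes had both members tested. Both members passed the 2-fold test as higher in 455 pairs and both as lower in 445 pairs. Another 469 pairs held 1 higher and 1 lower gene. Such mixed pairs can arise in either gene order, so their number is not directly comparable with that of either matched kind. Runs of 3 or more held 305 of the 1773 genes higher on starch and 316 of the 1658 genes lower. There were 7 runs of at least 5 genes higher on starch and 11 of at least 5 genes lower. Whether these pair and run counts exceed those of unrelated neighbours was not tested. Neighbours of gla1 moved in both directions. The adjacent Mycth_2311889 was 1.94 higher on the log2 scale (SE 0.08, adjusted p = 4.4e-27) and passed the 2-fold test. Mycth_2311886 on the other side had a log2 fold change of -0.46 (SE 0.06, adjusted p = 1.2e-09). Beyond Mycth_2311886, both Mycth_2311885 and Mycth_2311884 passed the 2-fold test as higher. Their means were 63.5 and 39.2 scaled RPKM on starch, against 20.9 and 17.9 without carbon. Beyond Mycth_2311889, Mycth_2316540 and Mycth_2311890 were lower on starch but did not pass the 2-fold test.

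The 3 transcripts with the highest scaled RPKM differed between the media. On starch the highest scaled RPKM were those of Mycth_45669, Mycth_108407 and Mycth_2133976, which ranked 45, 1771 and 11 without carbon. Mycth_45669 had 7160 and 6728 scaled RPKM on starch, against 1766 and 1847 without carbon (log2 fold change 1.94, SE 0.03, adjusted p = 3.3e-45). With the length trend removed this log2 fold change was 3.16. Mycth_108407 had 5941 and 6334 scaled RPKM on starch, against 69.0 and 77.7 without carbon (log2 fold change 6.39, SE 0.09, adjusted p = 6e-07). It was the fourth largest rise and combined a large fold with a top rank in level. Mycth_2133976 stood almost level, with 5851 and 5606 scaled RPKM on starch, against 6261 and 6322 without carbon (log2 fold change -0.14, SE 0.02, adjusted p = 2e-06). This direction turned with the length trend removed (log2 fold change 0.60).

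Without carbon the highest scaled RPKM belonged to Mycth_2071504, Mycth_2071953 and Mycth_2071285, short models of 219, 375 and 171 counted bases. On starch they still ranked 6, 5 and 7, in the same order. Mycth_2071504 had 5215 and 4750 scaled RPKM on starch, against 22476 and 31786 without carbon (log2 fold change -2.44, SE 0.35, adjusted p = 0.0054). Mycth_2071953 had 5332 and 4827 on starch, against 21138 and 29688 without carbon (log2 fold change -2.32, adjusted p = 0.0061). Mycth_2071285 had 4965 and 4690 on starch, against 16964 and 26140 without carbon (log2 fold change -2.16, adjusted p = 0.007). The media did not overlap for these genes, but the no carbon replicates lay far apart. Without starch replicate 1 their adjusted p-values were 0.0548, 0.058 and 0.0647, and without starch replicate 2 they were 0.0597, 0.0639 and 0.0688, in the same order. With the length trend removed the log2 fold changes were -1.17, -1.24 and -0.79, the last with an adjusted p of 0.0988.

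Of the 100 genes with the highest scaled RPKM on starch, 19 were more than 2-fold higher and 15 more than 2-fold lower than without carbon. Of the 100 highest genes without carbon, 2 were more than 2-fold higher and 40 more than 2-fold lower on starch, and 58 passed in neither direction. Both lists shared 59 genes, 59% of each, and each list was ranked on the values compared. Genes more than 2-fold higher on starch made up 23.0% and 23.4% of the summed RPKM in the starch libraries, against 5.61% and 5.36% in the no carbon libraries. Genes more than 2-fold lower made up 12.6% and 12.2% in the starch libraries, against 38.6% and 41.9% in the no carbon libraries. These shares describe the genes picked by the same test. Short models weighed on the second share: with genes under 500 bases left out, a choice made after the data were seen, genes lower on starch made up 8.16% and 8.10% in the starch libraries, against 26.9% and 26.8% in the no carbon libraries. In number of genes, 325 and 335 genes made up the first 50% of summed RPKM in the starch libraries, against 217 and 178 in the no carbon libraries.

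Gene length moved with the comparison at every level of expression. Genes were split into quartiles by counted length and, separately, by the mean of log2(scaled RPKM + 0.1) over the 4 libraries. Among the shortest quartile, up to 1037 bases, 9.13% of genes were more than 2-fold higher and 34.9% more than 2-fold lower on starch. Among the longest quartile, from 2230 bases, the shares were 28.7% higher and 8.31% lower. In the quartile of lowest level the median log2 fold change was -1.35 for the shortest and 0.73 for the longest genes, and in the quartile of highest level it was -0.39 and 0.22. Short genes thus tended to be lower and long genes higher on starch in all 4 level quartiles, most steeply among scarce genes.

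Across 8038 genes with a mean of at least 50 reads, Spearman's rho of length with the ratio of a starch library over a no carbon library was 0.29 in each of the 4 pairings. Between replicates it was -0.10 for starch replicate 1 over 2 and -0.02 for no carbon replicate 1 over 2. These are descriptions across genes of the same libraries, and the part of RNA quality or library preparation in the trend was not tested. Shares also differed by level. The share of genes more than 2-fold lower on starch was 30.05% in the lowest level quartile and 14.9% to 16.2% in the other 3. The share more than 2-fold higher was 27.8% in the second quartile and 13.8% in the highest. From the shortest to the longest length quartile, the share lower was 44.1%, 32.0%, 25.7% and 10.1% at the lowest level. At the highest level it was 25.0%, 13.2%, 11.1% and 10.5%. The excess of falls at the lowest level was thus not seen among the longest genes.

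**Figure D5:**
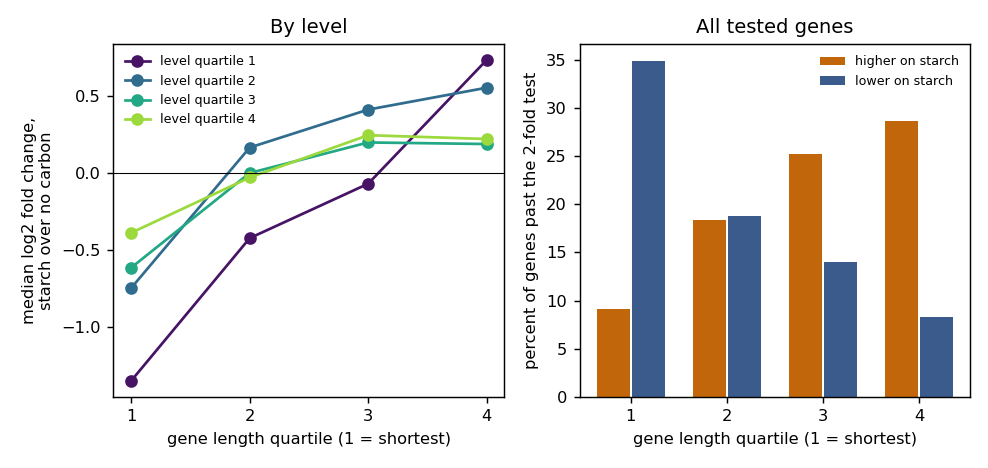
Left, median log2 fold change of starch over no carbon by gene length quartile, with 1 line per quartile of level (1 is the lowest); right, percent of tested genes in each length quartile that were more than 2-fold higher (orange) or lower (blue) on starch. The median lies below 0 for the shortest genes at every level, and the share lower on starch is 34.9% in the shortest quartile against 8.31% in the longest.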

How the data were processed

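Messenger RNA was sequenced on Illumina libraries. The authors deposited raw read counts and RPKM per gene for each library in 1 table. Tools listed in the submitters' processing notes are TopHat2 2.0.8b and HTSeq 0.5.4p2. The sources used here give no settings, strand or build, so reads of overlapping, antisense or near-identical genes cannot be told apart. The deposited RPKM served for gene lengths: 100.0% of 8989 implied lengths were whole bases (within 0.001).

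Counts were analysed with R 4.3.3 and edgeR 4.0.16 (filterByExpr, TMM factors, robust glmQLFit and glmQLFTest on all 6 libraries without covariates, 3 residual degrees of freedom, common biological coefficient of variation 2.52%). The 2-fold test was glmTreat. Adjusted p-values (Benjamini and Hochberg, threshold 0.05) run over all 8718 tested genes. Standard errors were obtained as log2 fold change over the root of F. The fit was tested on simulated data. At the depths used, 3 reads correspond to 0.131 to 0.169 CPM.

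Gene IDs were matched to locus tags of RefSeq assembly ASM22609v1 (9087 of 9110), which gave 6 symbols and the gene order. It holds no product text, protein or promoter sequence for these genes in the files used, so the planned lists by function, protein pattern and promoter motif had nothing to act on. Runs skip RNA genes and end at untested genes. Coordinates are left out, since the counts' build is not named.

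The genes named were those with a symbol, the 2 largest rises and falls among genes with at least 10 scaled RPKM in the higher medium and separate replicates, the 3 highest by scaled RPKM in each medium, and the first 6 genes of the longest run in each direction. A further 14 genes with full values, and neighbours of these, were named after their values were seen. The comparison, rule and tests were chosen with earlier results of these data known. Alternatives used limma-voom (limma 3.58.1), DESeq2 1.42.0, other scalings, filters and fits, a loess correction for length, and each library left out.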

Additional observations from a re-analysis of the deposited data

How the results depend on the processing

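All 4 counts of calls stayed within 1.5 times their value under each of 17 alternatives. Genes higher on starch numbered 3693 to 3976, genes lower 3731 to 4165, genes more than 2-fold higher 1534 to 1789 and genes more than 2-fold lower 1295 to 1854. With any library left out the 2-fold counts were 1723 to 1762 higher and 1559 to 1676 lower; a medium left with 1 library was then assumed to vary like the others. The share of calls that were higher was 50.3%, and 47.0% with upper quartile factors. Removing the length trend turned 253 of 3950 calls higher and 181 of 3896 calls lower to the opposite call. It turned no call of the 2-fold test, but only 1405 of the 1773 calls higher and 1252 of the 1658 calls lower were kept there. The 2-fold totals with the trend removed, 1635 higher and 1544 lower, thus include other genes. Among named genes, removing the trend turned Mycth_2133976 (log2 fold change 0.60). Among the values of named genes, 671 kept their direction and their side of the threshold and 7 lost the call (the 3 short models given above). The shares of RPKM gave 8 values that moved when genes under 500 bases or the 3 genes highest without carbon were left out. Leaving out the 3 genes highest without carbon gave 23.7% on starch and 6.01% without carbon for genes higher, and 10.5% and 34.6% for genes lower.

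No shared shift by replicate number was visible: the log2 ratio of replicate 1 over 2 on starch and that without carbon correlated at 0.02 across genes. Counting noise pulls such a correlation towards 0, so the value cannot show that the libraries were unpaired. With the replicate number as a block, 3960 genes were higher and 3895 lower, and 1773 and 1647 by more than 2-fold. Alternatives for the lists by function were not run, because those lists were empty. Depth limits genes with few reads in 1 medium, for which the counting interval bounds the fold.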

Other observations

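Further runs of neighbouring genes lower on starch were found, and are given as values by their first and last gene. A run of 9 genes, Mycth_2124936 to Mycth_93263, had log2 fold changes of -5.83 to -1.31, with means of 0.0516 to 101 scaled RPKM on starch and 2.45 to 354 without carbon. A run of 7, Mycth_2310757 to Mycth_2310760, had log2 fold changes of -2.88 to -1.25, and a run of 6, Mycth_2299910 to Mycth_2116458, had -5.04 to -1.75. Among the runs of 5 genes higher on starch, the one from Mycth_2299081 to Mycth_39591 had log2 fold changes of 1.31 to 4.95 and means of 26.0 to 114 scaled RPKM on starch, against 1.03 to 45.4 without carbon.

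By a fixed limit on raw reads, near-silence in 1 medium was rare among genes well expressed in the other. With at most 10 reads over both libraries of 1 medium and at least 10 scaled RPKM in the other, 4 genes were near silent on starch (Mycth_48716, Mycth_81364, Mycth_2062645 and Mycth_2127280) and 1 was near silent without carbon (Mycth_58485, 179 reads on starch and 8 without carbon). The first 2 belong to the run of 13 genes, and Mycth_2062645 opens the run of 5 beside it. Other genes of the run of 13 that were called almost silent above exceeded this limit. Mycth_115957, for example, had 19 reads on starch and 56779 without carbon.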
